A study of Mus musculus with 24 samples.

Results

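Oil-treated control mammary glands taken 16 h after the first injection were compared with those taken 4 h after it, 12 h apart in nominal time and without hormone. The comparison uses 6 of the 24 arrays of the series, 3 for oil at 4 h and 3 for oil at 16 h, chosen by their sample titles. All mice were nulliparous BALB/c mice that had been ovariectomized when 6 weeks old and left for 2 weeks. They then received 100 µl of sesame oil under the skin between the shoulder blades, on a daily schedule, and tissue was taken 4 or 16 h after injection began. Each array carried RNA pooled from 5 mice, 15 per group, and a p-value measures the spread between pools. The progesterone arrays of the same times came from other mice, which received 1 mg of progesterone in the same volume of oil. The arrays were Affymetrix Mouse Genome 430 2.0 arrays, and values are the deposited intensities, read per gene from its brightest probe set. The sources used here give neither the clock hour of the injection nor the light schedule, so time of day, hours since the injection and hours since handling cannot be told apart.

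The daily clock of a cell is a loop of transcription. Arntl (also called Bmal1) pairs with Clock or Npas2 and switches on genes with E-boxes in their promoters, among them the Per and Cry genes, Nr1d1, Dbp, Tef and Ciart. The Per and Cry proteins then shut off the Arntl and Clock pair, Nr1d1 (REV-ERB alpha) represses Arntl through ROR elements, and Dbp, Tef and Hlf act on D-boxes while Nfil3 opposes them there. Arntl, Clock and Npas2 therefore peak at the other end of the day from Dbp and Nr1d1 in most tissues. In fat, which makes up most of a mammary fat pad, the clock and feeding set a daily course for lipid synthesis, lipolysis and glucose uptake.

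Promoters of the 4 clock genes that passed the test below and of Ciart and Arntl, chosen for their matches, are shown first, as RefSeq gives them in GRCm38.p6, from 250 bases before to 50 bases after the start of transcription. Capitals mark the clock motifs that a search of both strands found. Nr1d1 lies on the minus strand at chr11:98775328-98775627 and holds an E-prime box, CACGTT, read here on its other strand as AACGTG and starting at -28. Per3 lies on the minus strand at chr4:151044616-151044915 and holds 2 D-boxes, TTATGNAA, at -205 and -158. Tef lies on the plus strand at chr15:81802423-81802722 and holds 1 E-box, CACGTG, at -127. Ciart lies on the minus strand at chr3:95882179-95882478 and holds 3 E-boxes, at -116, -58 and -44. Arntl lies on the plus strand at chr7:113207261-113207560 and holds a ROR element at 28 bases after the start. Clock lies on the minus strand at chr5:76304743-76305042 and holds none of these motifs. RefSeq lists 2 promoters each for Tef and Arntl, of which one with a match is shown, and 3 for Clock, of which 1 is shown.
Nr1d1: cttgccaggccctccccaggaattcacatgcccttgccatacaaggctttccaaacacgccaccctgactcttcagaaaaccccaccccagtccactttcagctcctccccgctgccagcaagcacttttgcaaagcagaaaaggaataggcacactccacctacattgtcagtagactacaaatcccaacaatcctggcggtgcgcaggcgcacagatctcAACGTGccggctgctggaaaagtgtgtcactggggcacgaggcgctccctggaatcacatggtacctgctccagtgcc
Per3: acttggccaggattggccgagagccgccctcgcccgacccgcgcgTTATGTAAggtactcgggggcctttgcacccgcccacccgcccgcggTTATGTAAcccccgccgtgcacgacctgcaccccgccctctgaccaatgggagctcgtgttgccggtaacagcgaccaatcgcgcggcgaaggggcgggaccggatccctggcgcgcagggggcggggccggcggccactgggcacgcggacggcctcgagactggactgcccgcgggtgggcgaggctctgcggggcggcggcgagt
Tef: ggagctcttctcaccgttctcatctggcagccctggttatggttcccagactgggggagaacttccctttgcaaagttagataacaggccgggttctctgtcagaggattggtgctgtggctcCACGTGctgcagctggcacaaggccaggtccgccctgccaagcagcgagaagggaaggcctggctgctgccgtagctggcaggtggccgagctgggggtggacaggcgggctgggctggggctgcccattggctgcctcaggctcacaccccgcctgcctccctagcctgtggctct
Clock: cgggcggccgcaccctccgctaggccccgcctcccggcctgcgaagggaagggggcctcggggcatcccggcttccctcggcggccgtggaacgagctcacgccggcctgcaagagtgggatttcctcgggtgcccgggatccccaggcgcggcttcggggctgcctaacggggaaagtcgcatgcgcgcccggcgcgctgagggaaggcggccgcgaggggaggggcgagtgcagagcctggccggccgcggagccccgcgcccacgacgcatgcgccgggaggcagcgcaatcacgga
Ciart: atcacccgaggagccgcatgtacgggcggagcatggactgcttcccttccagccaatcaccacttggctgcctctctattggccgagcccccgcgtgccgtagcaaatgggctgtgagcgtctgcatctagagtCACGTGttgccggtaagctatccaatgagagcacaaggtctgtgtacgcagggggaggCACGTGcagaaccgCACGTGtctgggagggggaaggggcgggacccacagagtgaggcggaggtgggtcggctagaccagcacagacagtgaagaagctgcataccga
Arntl: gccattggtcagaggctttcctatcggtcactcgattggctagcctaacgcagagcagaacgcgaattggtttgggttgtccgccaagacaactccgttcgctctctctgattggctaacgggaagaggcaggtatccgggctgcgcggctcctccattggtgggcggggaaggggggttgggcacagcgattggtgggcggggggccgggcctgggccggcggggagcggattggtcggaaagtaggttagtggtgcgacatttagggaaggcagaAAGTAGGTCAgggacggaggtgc
None of the matches overlap each other. A promoter was found for 14 of the 16 clock genes measured, and of these 4 held an E-box, 3 an E-prime box, 2 a D-box and 1 a ROR element. Those of Clock, Npas2, Nfil3, Dbp, Hlf and Nr1d2 held none. Over all 27025 genes of the RefSeq table the shares were 8.09%, 5.44%, 3.99% and 0.259%, and over the tested genes with a promoter 11.6%, 6.31%, 2.52% and 0.231%. A match is a run of letters, and binding was not measured here.

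Across the genome the oil groups differed in a minority of genes. Of 12352 genes tested with limma, 284 were called at an adjusted p under 0.05, which is 2.3% of them. At 16 h 65 genes (0.526%) were higher and 219 (1.77%) were lower than at 4 h. With each array centred on its median the split was 17 higher and 433 lower. The called changes were small, with a median log2 change of 0.42 for the rises and -0.58 for the falls, and 21 genes moved by more than 1 log2 unit. The 3 arrays of a group did not overlap with those of the other for 3808 genes, 30.8% of all. With limma, 2505 of the 12352 genes had an unadjusted p under 0.05. Later counts of list members at that level in this comparison are to be read beside that number.

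The calls rested on the full set of arrays. Without oil 4 h replicate 1, limma called 0 genes, although 1832 had an unadjusted p under 0.05. Without oil 4 h replicates 2 and 3 it called 20 and 185, and without oil 16 h replicates 1, 2 and 3 it called 41, 11 and 10. None of the 284 genes was therefore called in all 6 of these fits, and this holds for every gene named here as risen or fallen. Pcsk4, Hadha, Pfkl and Kcnk3 kept their call in 4 of the 6 fits, more than any other named gene. On log2 values the arrays of a group correlated with r from 0.984 to 0.987 at 4 h and from 0.982 to 0.992 at 16 h across genes, so that no array stood apart on this measure.

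**Figure D1:**
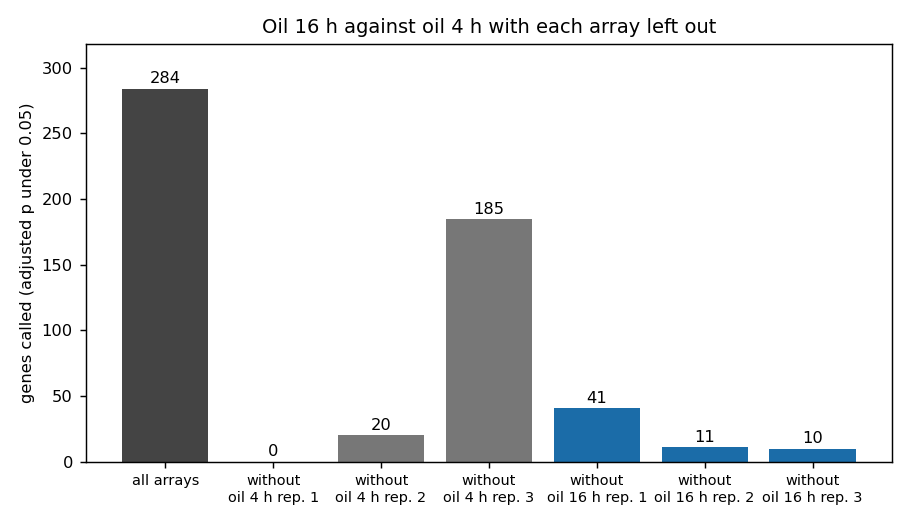
Genes called between oil 16 h and oil 4 h (vertical axis, number of genes at an adjusted p under 0.05 with limma) with all arrays and with each of the 6 arrays left out. The count falls from 284 to between 0 and 185.

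The clock genes differed in opposite directions by phase. All 5 measured genes of the Arntl phase were on average higher at 16 h, with a median log2 change of 0.44, and all 11 of the Dbp phase were lower, with a median of -0.47, beside a median of 0.03 over all genes. Of these 16 genes 4 passed the test, Clock upward and Nr1d1, Per3 and Tef downward, which is to be read beside the 2.3% called among all genes. The signs of all 16 were the same after quantile normalization and after centring. Averaged over all probe sets of each gene, Clock and Tef lost their calls (limma adjusted p 0.279 and 0.294), Arntl and Dbp gained one (0.0435 and 0.018), and Nr1d2 turned to 0.08. Per1, close to 0, also changed sign when single arrays were left out (-0.31 to 0.10). Without single arrays, 0 to 3 of the 16 were called, with 0 where oil 4 h replicate 1 or 2 or oil 16 h replicate 1 was left out.

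Nr1d1, the repressor of Arntl, had intensities of 1051, 678 and 538 in the oil 4 h arrays and of 263, 293 and 270 in the oil 16 h arrays. All 16 h arrays were below all 4 h arrays, which varied more among themselves. The log2 change was -1.40 (SE 0.33, adjusted p = 0.0353), a 2.64-fold lower level at 16 h. Per3, a period gene of the loop, read 322, 363 and 297 at 4 h and 161, 214 and 259 at 16 h. Its groups did not overlap, and the log2 change was -0.65 (SE 0.15, adjusted p = 0.0345). Tef, a D-box activator, read 1161, 1382 and 1181 at 4 h and 779, 1000 and 708 at 16 h, a log2 change of -0.59 (SE 0.13, adjusted p = 0.0335). Other probe sets of Per3 gave log2 changes of -0.44, -0.61 and -0.55, whereas a dim one of Tef gave -0.03.

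Dbp, the clock's main D-box activator, was bright and showed its largest spread at 16 h. The 4 h arrays read 2383, 3165 and 2180 and the 16 h arrays 914, 1363 and 1994. The groups did not overlap, but the 16 h replicate 3 came close to the 4 h arrays, and the log2 change of -0.91 (SE 0.27) missed the threshold at an adjusted p of 0.0643. Another Dbp probe set changed by -1.40 with an adjusted p of 0.00991 over probe sets. Ciart, which represses the Arntl and Clock pair, read 87.9, 109 and 115 at 4 h and 57.8, 60.8 and 79.3 at 16 h, without overlap and with an adjusted p of 0.0764. Hlf (log2 change -0.47, adjusted p = 0.19), the E-box repressor Bhlhe40 (-0.33, adjusted p = 0.346), Nr1d2 (-0.17, adjusted p = 0.316) and Cry2 (-0.17, adjusted p = 0.469) had overlapping arrays. The period genes Per2 and Per1, which also answer acute signals, had the smallest differences of the 11, -0.12 and -0.04, with adjusted p of 0.809 and 0.949.

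On the other side of the loop, Clock read 394, 361 and 382 at 4 h and 570, 525 and 450 at 16 h. The log2 change was 0.44 (SE 0.11, adjusted p = 0.039). Of 3 other Clock probe sets, 2 gave positive changes of 0.18 and 0.36 and the third gave -0.04, none of them called. Arntl itself read 82.1, 92.8 and 94.5 at 4 h and 197, 151 and 118 at 16 h. The groups did not overlap, yet its log2 change of 0.76 (SE 0.21) had an adjusted p of 0.0523. Npas2, the partner that can replace Clock, was dim, at 16.6, 15.2 and 8.05 against 62.6, 41.5 and 19.6, with a log2 change of 1.55 (SE 0.43, adjusted p = 0.0532). Cry1 and Nfil3 differed by 0.34 and 0.37 with adjusted p of 0.32 and 0.399.

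**Figure D2:**
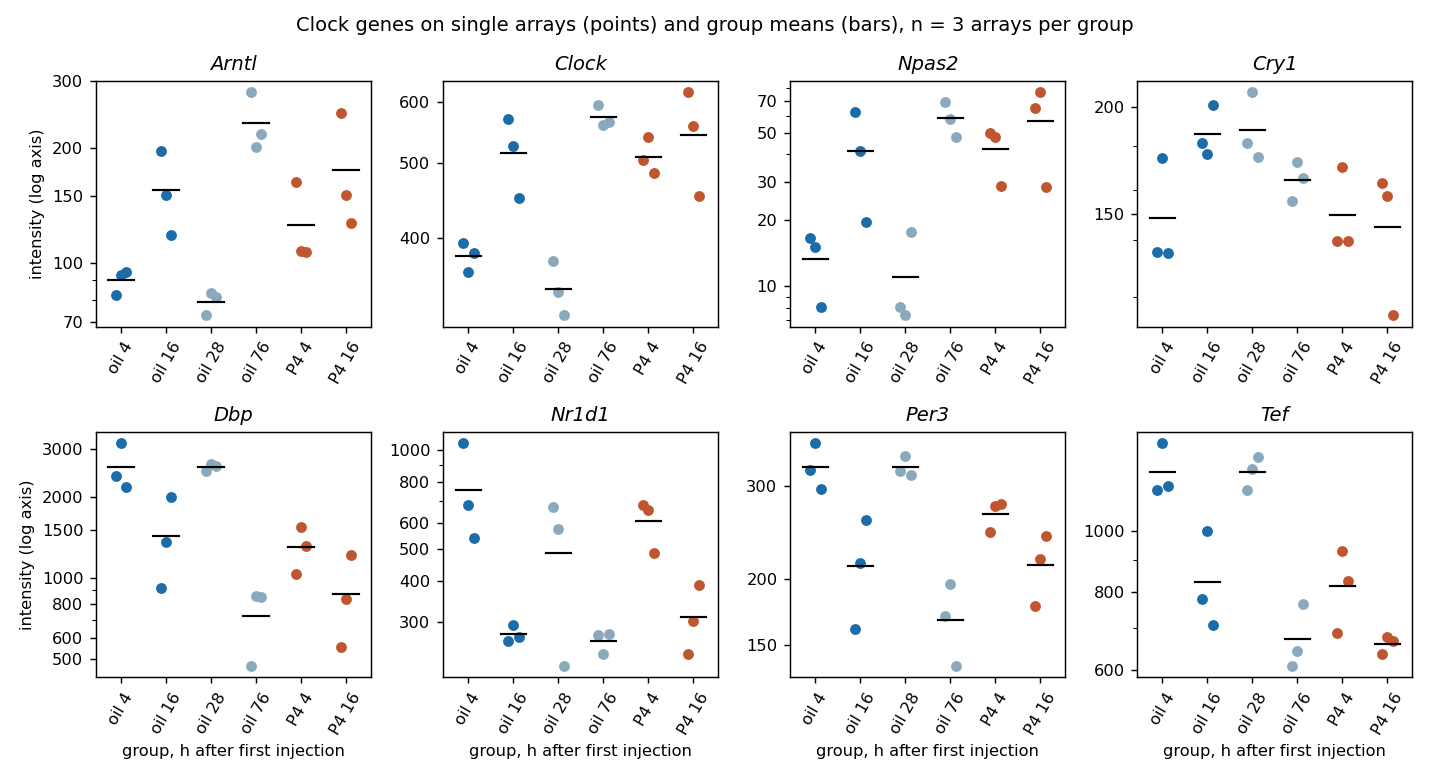
Intensity (log axis) of 4 Arntl phase genes and 4 Dbp phase genes in the oil groups at 4, 16, 28 and 76 h and the progesterone groups at 4 and 16 h (horizontal axis, h after the first injection). Points are arrays and bars are means of 3; for Nr1d1 the 3 oil 16 h arrays lie between 263 and 293 and the oil 4 h arrays between 538 and 1051.

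The other oil groups give the same genes at 2 more times, 28 h and 76 h, which are whole days from 4 h in nominal time. These contrasts share the oil 4 h arrays with the comparison above, so the values are set side by side and no overlap is drawn. At 28 h limma called 0 of the 16 clock genes against 4 h, in a comparison with 3.82% of all genes called. At an unadjusted p under 0.05 were 3 of the 16, beside 2249 of all 12352 genes. Dbp, Per3 and Tef differed there by 0.01, 0.00 and 0.00 log2 units, Bhlhe40 by -0.64 (adjusted p = 0.0724), Nr1d1 by -0.73 (adjusted p = 0.234) and Per2 by 0.58 (adjusted p = 0.14). At 76 h, where 3.57% of all genes were called against 4 h, 3 of 5 Arntl phase genes were called higher and 7 of 11 Dbp phase genes lower. Dbp differed from 4 h by -1.86, Arntl by 1.37, Npas2 by 2.19, Nr1d1 by -1.47, Hlf by -1.10, Per3 by -0.98 and Tef by -0.89 log2 units at 76 h. For Dbp, Arntl and Npas2 these values exceed the 16 h values of -0.91, 0.76 and 1.55. Dbp averaged 2568 ± 81.4 at 28 h and 724 ± 220 at 76 h (SD, n = 3), and Arntl 78.9 ± 5.51 and 234 ± 41.7. For Dbp, Per3 and Tef the 28 h means were close to those at 4 h, which does not hold for Bhlhe40, Nr1d1 and Per2. For Nr1d1 the 28 h arrays read 669, 573 and 220, and only replicate 3 lay outside the 4 h range of 538 to 1051. Taken directly, oil 16 h minus oil 76 h gave 0 called genes with limma (1642 at an unadjusted p under 0.05, smallest adjusted p 0.0785), with differences of -0.60 for Arntl, -0.64 for Npas2, 0.96 for Dbp, 0.33 for Per3, 0.29 for Tef and 0.07 for Nr1d1.

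Genes whose levels followed the clock most closely over the 24 arrays were taken by Pearson's r on log2 values, as a description. Nearest to Arntl were Dapk1, a death-associated kinase (r = 0.90), Clock (0.87), the mitochondrial protease subunit Clpx (0.83), the activin binder Fst (0.82) and Hoxb6 (0.82). Nearest to Dbp were the vitamin transporter Slc5a6 (0.90), the tetraspanin Tspan4 (0.90), Per3 (0.89), Tef (0.87) and Nr1d2 (0.85). The 24 arrays include the 6 compared here, so the values of these genes between the oil groups are given without a test. Dapk1 read 656, 712 and 675 at 4 h and 999, 976 and 830 at 16 h, a log2 difference of 0.45, whereas another of its probe sets gave 0.08. Slc5a6 read 162, 185 and 166 against 107, 105 and 115, a log2 difference of -0.65. Of 17 measured genes of a list of clock outputs and clock kinases, limma called 0 and 5 had an unadjusted p under 0.05. Csnk1e, a kinase that marks Per proteins for decay, had the largest difference of them (-0.56, adjusted p = 0.0806), and another of its probe sets gave 0.14.

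Some genes of fat storage fell. Here and in the lists that follow, counts of falls stand beside 1.77% of all genes called lower and counts of rises beside 0.526% called higher. In the list of fatty acid and triglyceride synthesis, 24 of 26 measured genes had a negative change, with a median of -0.27, and 5 fell while none rose. Slc25a1, which exports citrate from mitochondria for fatty acid synthesis, fell most, from 6483, 5796 and 5669 to 3579, 3942 and 3486. Its log2 change was -0.70 (SE 0.15, adjusted p = 0.0235). Dgat1, which adds the last fatty acid of a triglyceride, fell from 2352, 2169 and 2111 to 1606, 1475 and 1293 (-0.60, adjusted p = 0.039), while its dim other probe set gave 0.06. Srebf1, the transcription factor that drives the pathway, read 3165, 3459 and 3633 at 4 h and 2271, 2311 and 2418 at 16 h. The 3 arrays of each group lay close together, and the log2 change was -0.55 (SE 0.11, adjusted p = 0.0175).

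Elovl6, an elongase, fell by 0.54 on the log2 scale (adjusted p = 0.0479), and Acacb, the acetyl-CoA carboxylase that also curbs fatty acid oxidation, fell by 0.50 (adjusted p = 0.0362). Other enzymes of the pathway did not pass the test. Fasn, the fatty acid synthase, read 12180, 11720 and 12160 at 4 h and 11350, 11620 and 10260 at 16 h, a log2 difference of -0.12 with an adjusted p of 0.318. Scd1, the stearoyl-CoA desaturase, differed by 0.05 (adjusted p = 0.672) with overlapping arrays.

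Of 13 measured genes of lipolysis and the fat droplet 3 fell and none rose, with a median of -0.16. Lipe, the hormone-sensitive lipase, read 3364, 3969 and 3677 at 4 h and 2822, 2743 and 1862 at 16 h, and replicate 3 was the lowest array. Its log2 change was -0.59 (SE 0.15, adjusted p = 0.0444). Pnpla2, the lipase that takes the first fatty acid off a triglyceride, fell from 7403, 6989 and 7085 to 5715, 5347 and 4636 (-0.46, adjusted p = 0.039). Plin4, a droplet coat protein, fell by 0.31 on the log2 scale (adjusted p = 0.0263).

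Among 24 measured genes of fatty acid oxidation and fasting, 4 fell, none rose and the median was -0.09. Hadha, the alpha subunit of the mitochondrial trifunctional protein, read 2649, 2744 and 2429 at 4 h and 1475, 1431 and 1813 at 16 h. It had one of the smallest adjusted p of the comparison, 0.00953, at a log2 change of -0.74 (SE 0.12), and all 16 h arrays lay below all 4 h arrays. Pdk2, a kinase that holds back pyruvate dehydrogenase, fell from 484, 452 and 403 to 243, 269 and 220 (-0.87, adjusted p = 0.0469). Crat and Cpt2, which handle carnitine esters, fell by 0.58 and 0.44 on the log2 scale (adjusted p 0.0374 and 0.0335). Other Crat probe sets gave -0.13 and -0.20. Other genes of this list that respond to fasting did not pass the test: Pdk4 read 602, 478 and 482 against 462, 589 and 446, and Angptl4, an inhibitor of lipoprotein lipase, 2490, 2128 and 1575 against 2620, 2870 and 1494. Their arrays overlapped and their log2 differences were -0.06 and 0.14, with adjusted p of 0.872 and 0.74.

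Glucose handling gave 3 falls among 18 measured genes of glycolysis and glucose uptake, with a median of -0.04 and no rise. Pfkl, a phosphofructokinase subunit, fell from 1717, 1294 and 1416 to 799, 857 and 693. The log2 change was -0.91 (SE 0.17, adjusted p = 0.0163). A second Pfkl probe set gave -0.69 and a dim one 0.05. Pkm, pyruvate kinase, fell by 0.46 on the log2 scale (adjusted p = 0.0397). Slc2a4, the insulin-responsive glucose transporter of fat and muscle, fell from 3022, 2924 and 2665 to 2125, 2263 and 2214 (-0.38, adjusted p = 0.0359). It was also the single member called among 21 genes that respond to insulin and FoxO, a list whose median was 0.13. Gys1, glycogen synthase, fell from 681, 614 and 576 to 380, 428 and 391 (-0.64, adjusted p = 0.0201), the 1 call among 16 glycogen genes.

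Of 20 genes of cholesterol synthesis and uptake, Dhcr7 and Mvk, enzymes of the late and the early pathway, fell by 0.76 and 0.54 on the log2 scale (adjusted p 0.047 and 0.0374). The median of that list was -0.07. Uqcrc1, a subunit of complex III, fell by 0.40 (adjusted p = 0.0427) and was the 1 call among 27 respiratory chain genes, of which 22 had a negative change with a median of -0.07. Some falls were also present at 76 h. Against the same 4 h arrays, oil 76 h gave 4 lower calls in fatty acid synthesis, 2 lower and 1 higher in lipolysis. It gave 2 lower in oxidation, 1 lower in glycolysis and 3 higher in cholesterol, beside 3.57% of all genes called. Hadha, Slc25a1, Srebf1 and Pfkl differed there by -0.77, -0.60, -0.40 and -0.64 log2 units, but Elovl6, Cpt2 and Dhcr7 by -0.20, -0.19 and -0.01. Against 4 h, limma at 28 h called 2 genes of fatty acid synthesis, 1 of glycolysis and 0 of lipolysis, oxidation and cholesterol. This stands beside 3.82% of all genes called. The synthesis list had a median of -0.21 at 28 h, with 13 of 26 genes at an unadjusted p under 0.05, against 16 at 16 h. Slc2a4 differed at 28 h by -0.35 (adjusted p = 0.0283), but Dgat1 and Plin4 by -0.04 and -0.06.

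**Figure D3:**
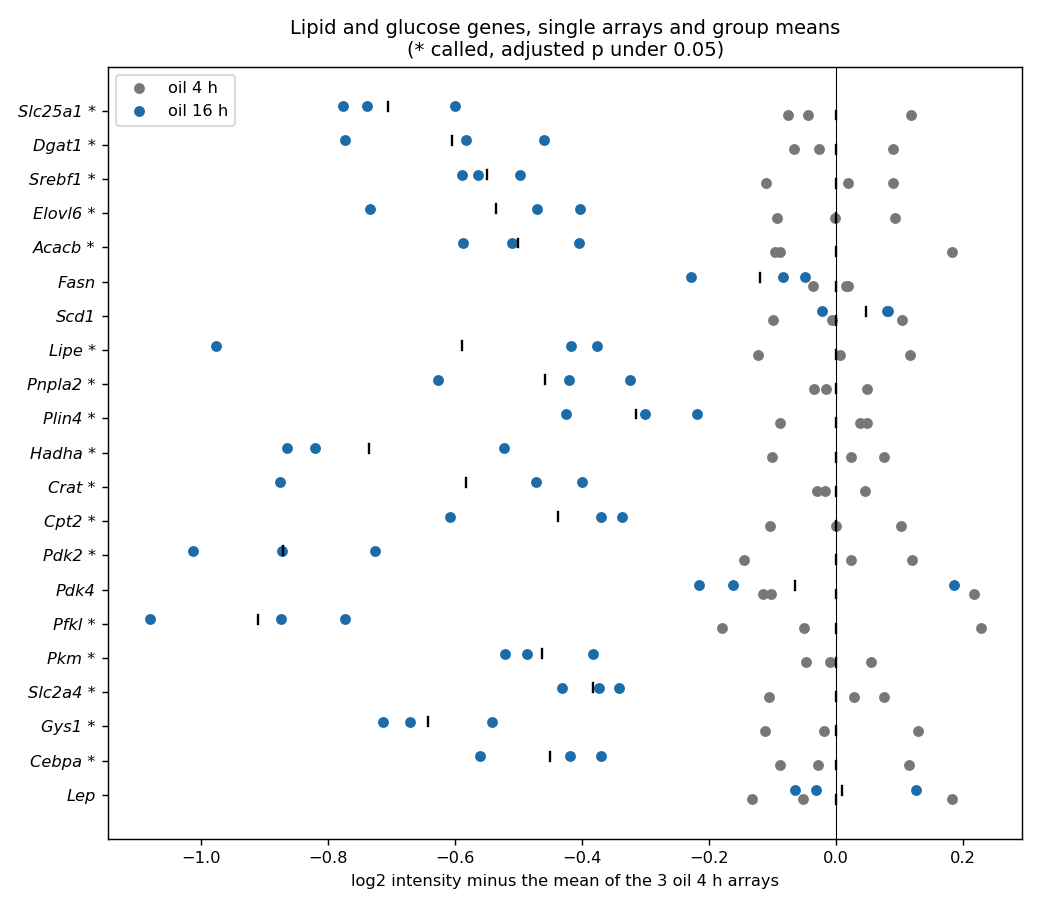
Log2 intensity of 21 lipid, glucose and adipocyte genes on each oil array, relative to the mean of the 3 oil 4 h arrays (horizontal axis, log2 units), with ticks for group means and stars for genes called with limma. The oil 16 h arrays of the called genes lie to the left of every oil 4 h array, while Fasn, Scd1, Pdk4 and Lep lie near 0.

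Adipocyte identity genes showed a split picture. Adipoq, the adipocyte hormone adiponectin, averaged 11530 ± 459 at 4 h and 11580 ± 694 at 16 h (SD, n = 3), and Lep, leptin, 1517, 1888 and 1603 against 1626, 1590 and 1814. Of 18 white adipocyte markers 5 fell: Lipe, Pnpla2, Plin4, Slc2a4 and Cebpa, the first 4 of which also belong to the lists above. Cebpa, a transcription factor of adipocyte differentiation, read 5770, 5227 and 5016 at 4 h and 4123, 3985 and 3612 at 16 h (-0.45, adjusted p = 0.0388). The median of the white adipocyte list was -0.03, and the summed intensity of its members ran from 112300 to 115500 at 4 h and from 103100 to 111100 at 16 h. In a bulk sample, fewer cells of a type and less RNA per cell cannot be told apart. Of 9 adipokine genes limma called 0, and 2 had an unadjusted p under 0.05.

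Brown adipocyte markers gave 2 falls among 12 measured, with a median of -0.21. Kcnk3, a potassium channel, fell from 399, 295 and 284 to 170, 164 and 138, a log2 change of -1.04 (SE 0.17, adjusted p = 0.00953). At 28 h it was also called lower than at 4 h with limma (-0.65, adjusted p = 0.0313). Elovl3, an elongase of very long fatty acids, fell from 131, 117 and 120 to 61.0, 91.1 and 73.2 (-0.73, adjusted p = 0.0359). Ucp1, the defining heat-producing uncoupler, was dim and its arrays overlapped, at 133, 76.4 and 207 against 58.4, 93.6 and 53.5, with a log2 difference of -0.95 and an adjusted p of 0.36. The summed intensity of the list lay between 5484 and 5867 at 4 h and between 4016 and 5354 at 16 h.

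Genes that respond to glucocorticoids, whose blood level has a daily course and rises with handling, gave 2 rises and no fall among 24 measured, with a median of 0.14. Dusp1, a phosphatase that switches off MAP kinases, read 1448, 1413 and 1257 at 4 h and 2079, 2118 and 2472 at 16 h (0.69, SE 0.14, adjusted p = 0.0182). Sgk1, a kinase of salt and growth signalling, rose from 1252, 1548 and 1483 to 1799, 1938 and 1977 (0.42, adjusted p = 0.0403). Fkbp5, a textbook glucocorticoid target, had overlapping arrays and a log2 difference of 0.09 (adjusted p = 0.878). Arrdc2, which was not called, had the largest difference of this list, in the opposite direction to the 2 rises (-0.88). Blood hormones were not measured here. For the 22 immediate early genes, 21 genes of the unfolded protein response and 19 heat shock and cold-inducible genes limma called 0, with 4, 7 and 5 at an unadjusted p under 0.05. Their medians were 0.14, 0.18 and 0.06, and Fos had the largest difference, 0.60 (adjusted p = 0.124).

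**Figure D4:**
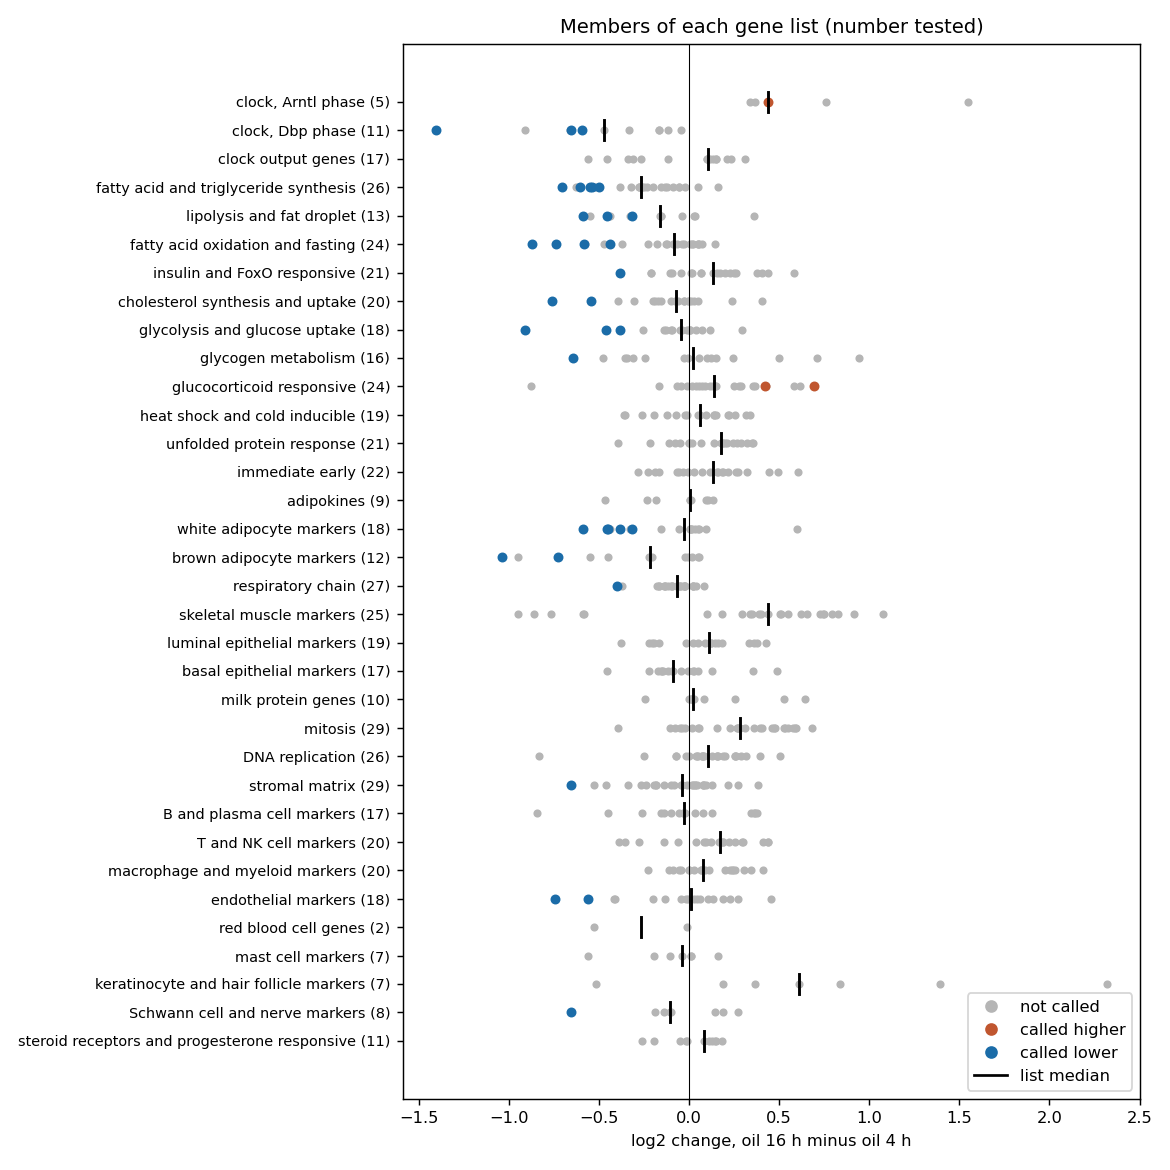
Log2 change from oil 4 h to oil 16 h (horizontal axis) of every measured member of 34 gene lists, with called genes coloured and a bar at the median of each list. The Arntl phase clock genes lie right of 0 and the Dbp phase genes left of it, and the called members of the metabolic lists all lie left of 0.

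The genes with the largest rises were read next. Rpl27a, a ribosomal protein gene read by a dim probe set, rose from 28.1, 58.4 and 154 to 290, 328 and 478 (log2 change 2.50, adjusted p = 0.028), and it was the 1 gene called among 51 Rpl and Rps genes. The zinc finger gene Zfp458 rose by 1.11 and the growth arrest gene Gadd45g by 0.88, the latter from 85.4, 146 and 103 to 223, 217 and 164. After them came Rbm12b2, Dusp1, the claudin Cldn10, Snrnp40 and Srp19 of the splicing and signal recognition machineries, and the chromatin proteins Mtf2 and Wdr5, with log2 changes from 0.59 to 0.70. Tnik, Tnfaip6, the EGF family ligand Tgfa, Rab30 and Zfp53 followed at 0.53 to 0.59. Other probe sets of Rbm12b2, Wdr5 and Rab30 gave -0.27, -0.02 and 0.04, and 1 of 4 others of Mtf2 gave -0.07, so these rises are not shared by all probe sets. Splicing and translation factors were counted after their values had been seen: 3 of 19 hnRNP genes, 1 of 9 Srsf genes and 2 of 11 Eif3 genes rose and none fell, and 4 of 252 Zfp genes rose and 1 fell, beside 0.526% of all genes called higher. The median changes of these families were 0.17, 0.24, -0.01 and 0.15.

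Among the largest falls was Anpep, the surface aminopeptidase N, from 916, 683 and 572 to 279, 258 and 224. Its log2 change was -1.49 (SE 0.33, adjusted p = 0.0321). Slc25a23, a mitochondrial ATP and phosphate carrier, fell from 576, 395 and 287 to 163, 136 and 154 (-1.42), and Bcat2, which starts the breakdown of branched-chain amino acids, from 474, 526 and 396 to 210, 214 and 181 (-1.20). The Notch modifier Lfng fell by 1.28 on the log2 scale, the B cell factor Pou2f2 by 1.41, the antibacterial protein Pglyrp1 by 1.15 and the protease Pcsk4 by 1.15. Pou2f2 was dim, at 70.9, 88.0 and 58.5 against 28.6, 26.6 and 25.4, and its other probe set gave -0.85. Samd10, Ap2a1, the RNA-binding protein Nova2, the scavenger receptor Scarf1, Tle5 and Serpina11 fell by 1.04 to 1.23. Pum2 is uncertain: the probe set used here gave -1.33, but 3 others gave 0.16, 0.24 and 0.73. Most of these genes also split among the oil 28 h arrays, where replicate 3 read low. The 28 h values were 487, 453 and 203 for Anpep, 406, 390 and 126 for Slc25a23 and 466, 406 and 167 for Bcat2. They were 823, 663 and 305 for Lfng, 3547, 3215 and 1203 for Pum2 and 669, 573 and 220 for the clock gene Nr1d1. The clock genes Dbp (2479, 2639 and 2587) and Tef (1160, 1256 and 1314) were not low in replicate 3. Samd10 (166, 106 and 227) and Serpina11 (67.0, 44.3 and 93.0) were highest in it. With progesterone at 28 h, replicate 3 was also lowest for Anpep (621.5, 480.5 and 246), Pum2 (2925, 2875 and 1202) and Nr1d1 (759, 514 and 314). Samd10 (106.3, 128.5 and 185.2) was highest in it. The cause of this split was not tested. Families counted after their values had been seen held 5 falls among 37 mitochondrial carriers of the Slc25a family and 3 among 13 peroxins. They also held 3 among 12 Sox factors and 1 among 8 plexins, with no rise, beside 1.77% of all genes called lower. Their median changes were small, at -0.03, -0.07, -0.06 and -0.06.

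The largest fall of all carried a clone name and stands outside the naming rule. 1700048O20Rik read 57.3, 208 and 186 at 4 h, and all 3 arrays at 16 h were at the floor of 7.38, so the fitted log2 change of -4.14 depends on that floor. 4932431P20Rik, also outside the rule, rose from 33.4, 44.7 and 78.4 to 99.1, 122 and 144. By length, the genes that rose were longer, with a median gene length of 37802 bases in GRCm38.p6 against 18580 for those that fell and 23201 for all tested. The median intensity of the genes that fell was 503, of those that rose 682 and of all 327.

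Epithelial and other cell types of the gland showed few changes. For 19 luminal and 17 basal markers limma called 0, with 2 and 1 at an unadjusted p under 0.05, and the summed luminal intensity ran from 9442 to 10950 at 4 h and from 10060 to 10970 at 16 h. Of 11 genes of the steroid receptor list, 0 were called and 1 had an unadjusted p under 0.05. Pgr, the progesterone receptor, read 490, 493 and 411 against 394, 413 and 588. Of 10 milk protein genes 0 were called and 2 had an unadjusted p under 0.05, with the largest difference for Btn1a1, a coat protein of milk fat globules (0.64, adjusted p = 0.0537).

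In 29 mitosis and 26 replication genes limma called 0, with 3 and 5 at an unadjusted p under 0.05 and medians of 0.28 and 0.11. Of 18 endothelial markers 2 fell, Eng, a coreceptor of vessel growth (896, 901 and 814 against 563, 542 and 457; -0.75, adjusted p = 0.0335), and Sox18 (-0.56, adjusted p = 0.0353). A second Eng probe set gave -0.10. Col15a1, a basement membrane collagen, fell by 0.66 on the log2 scale (adjusted p = 0.039) as the 1 call among 29 matrix genes, and Sox10 by 0.66 (adjusted p = 0.0399) as the 1 call among 8 Schwann cell and nerve genes.

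The gland holds a lymph node and can carry skin and muscle. Of 17 B cell, 20 T cell, 20 macrophage, 7 mast cell, 7 keratinocyte and hair follicle and 2 red blood cell genes limma called 0, with 2, 4, 2, 1, 1 and 0 at an unadjusted p under 0.05. Cd79a, a B cell receptor subunit, read 2283, 2215 and 2042 against 1386, 1079 and 1197 with an adjusted p of 0.0983. Of 25 skeletal muscle markers limma called 0 and 2 had an unadjusted p under 0.05, with a median of 0.44. Their summed intensity was 52720, 56760 and 48330 at 4 h and 49860, 90490 and 81170 at 16 h, so that 2 of the 3 arrays at 16 h held more muscle signal and 1 did not. With a muscle score as a covariate, chosen after the data were seen, 230 genes were called in place of 284, and Nr1d1, Per3 and Tef kept their calls while Clock had an adjusted p of 0.051. The defining skin gene Lor was below the array median on all 6 arrays. The 7 keratinocyte and hair follicle genes, however, had a median of 0.61, with 6 positive changes and 1 negative. Krt25 and Krt71 differed by 2.32 and 1.39, and Krt1 by -0.515. Between the progesterone arrays of 16 h and 4 h the median of this list was 1.56, with 4 of the 7 called higher. The share of skin in the samples was not tested.

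RNA quality differed slightly in the same comparison. The log2 ratio of 3' to 5' actin control probes was 0.425 ± 0.015 at 4 h and 0.307 ± 0.0873 at 16 h (SD, n = 3; exact two-sided permutation test p = 0.1, the smallest that 3 against 3 arrays allow). For Gapdh the ratios were -0.0786 ± 0.103 and -0.155 ± 0.115 (exact permutation p = 0.5). Between the progesterone arrays the actin ratio went from 0.557 ± 0.0447 at 4 h to 0.326 ± 0.0168 at 16 h. The Gapdh ratio there went from 0.199 ± 0.177 to -0.192 ± 0.0561. Neither had overlapping arrays, and no test was run on them. With the actin ratio as a covariate, chosen after the data were seen, 565 genes were called, and of the 16 clock genes Nr1d1 (-1.45, adjusted p = 0.0377) and Tef (-0.72, adjusted p = 0.0139) were called. The sources used here give no scan or processing batches, and their part in the result was not tested.

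The progesterone arrays of the same times repeat the interval in other mice. There 370 genes were called between 16 h and 4 h, 3.0% of those tested, with 158 (1.28%) higher and 212 (1.72%) lower. With limma, 2532 of the 12352 genes had an unadjusted p under 0.05 there. Of the 284 genes called in oil, 47 were called in the same direction with progesterone and 0 in the opposite direction, which is 16.5% of the oil list and 12.7% of the progesterone list. These were 8 rises and 39 falls. Of the 65 genes that rose in oil, 78.5% had a positive change with progesterone against 44.8% of all genes, and of the 219 that fell, 88.6% had a negative one against 55.2%. The median changes there were 0.13 and -0.26, in arrays that were not used to choose the genes but were fitted with the same spread. The control probe ratios given above fell from 4 h to 16 h in both treatments. The part of RNA quality in the shared direction was not tested.

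Rpl27a (2.86, adjusted p = 0.014), Wdr5 (0.98, adjusted p = 0.00224), Mtf2 (0.73, adjusted p = 0.0203) and Snrnp40 (0.59, adjusted p = 0.0457) were called higher with progesterone as well. Anpep (-1.34, adjusted p = 0.031), Slc25a23 (-1.43, adjusted p = 0.0346), Bcat2 (-1.25, adjusted p = 0.0367), Pglyrp1 (-1.28, adjusted p = 0.024), Pcsk4 (-0.74, adjusted p = 0.0399), Kcnk3 (-0.77, adjusted p = 0.0203) and Dhcr7 (-0.86, adjusted p = 0.0242) were called lower. Other large rises and falls of the oil comparison were near 0 with progesterone. Dusp1, Gadd45g, Tnik and Rab30 differed there by -0.12, 0.05, -0.10 and 0.01, and Samd10 and Serpina11 by 0.03 and 0.02. Of the 26 genes of fatty acid and triglyceride synthesis limma called 0 there, and 8 had an unadjusted p under 0.05. Slc25a1, Srebf1, Hadha and Lipe had log2 changes of -0.24, -0.27, -0.09 and 0.08.

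Clock genes gave 1 call between the progesterone arrays. Of the 16 only Nr1d2 was called (-0.43, adjusted p = 0.0195), whose change in oil had been -0.17. With limma, 1 of 5 Arntl phase and 8 of 11 Dbp phase genes had an unadjusted p under 0.05, against 3 and 6 in oil. Over all 12352 genes the counts at that level were 2532 with progesterone and 2505 in oil. The list medians were 0.08 and -0.34, but Per2 of the Dbp phase differed upward, by 0.55. Nr1d1 differed by -0.98 (adjusted p = 0.0944), Dbp by -0.64 (adjusted p = 0.176), Arntl by 0.45 (adjusted p = 0.222) and Clock by 0.08 (adjusted p = 0.708). At 4 h the progesterone arrays averaged 1299 ± 256 for Dbp and 126 ± 32.7 for Arntl (SD, n = 3), against 4 h oil arrays of 2180 to 3165 and 82.1 to 94.5. The difference between the 2 changes was tested as an interaction, and for Nr1d1, Dbp, Arntl and Clock its adjusted p was 0.683, 0.755, 0.63 and 0.322. Over all genes the interaction called 1 gene, 0.0081% of those tested, with 1700 at an unadjusted p under 0.05. That gene was Aldh3a1, an aldehyde dehydrogenase, which read 21.8, 35.8 and 41.1 against 30.9, 26.2 and 19.1 in oil but fell from 457 ± 109 to 49.1 ± 11.4 with progesterone.

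**Figure D5:**
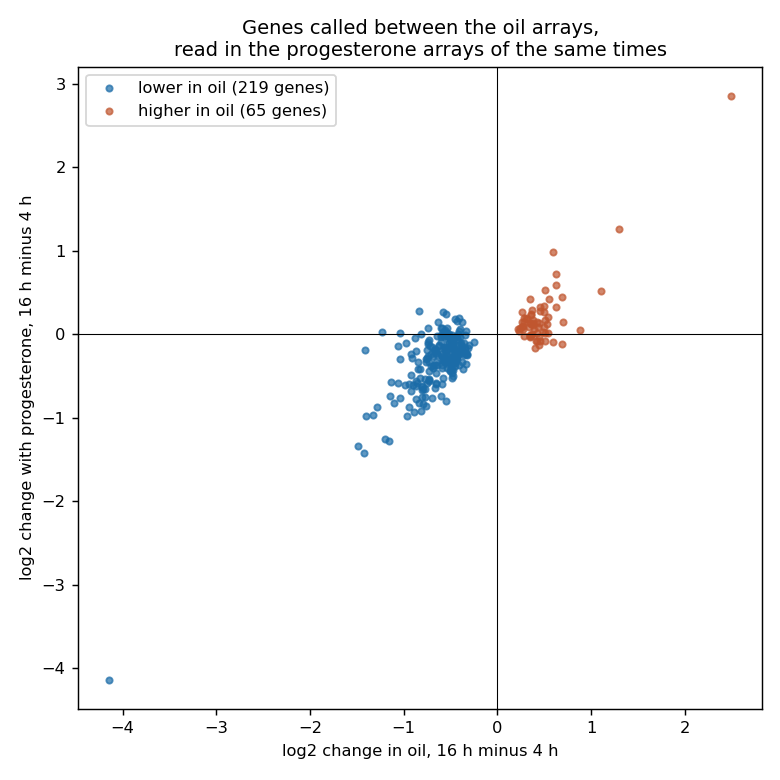
Log2 change from 4 h to 16 h in oil (horizontal axis) and with progesterone (vertical axis) for the 284 genes called in oil, 65 higher and 219 lower. Most points lie in the lower left and upper right, with 88.6% of the falls below 0 on the vertical axis and 78.5% of the rises above it.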

How the data were processed

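Per the labels' protocols, Trizol was used to isolate mammary RNA, and biotin labelling took 1 cycle. The authors deposited linear intensity values for 45101 probe sets on 24 arrays. The sources used here name neither the summarizing software nor the normalization. Here, values under the 10th percentile (7.38) were raised to it, then log2 values computed. Array medians spanned 0.16 log2 units, so no further scaling was done. Control probe sets and probe sets without exactly 1 symbol were left out. A probe set had to exceed its array median on at least 3 arrays, and the brightest on average stood for a gene, leaving 12352 genes. Groups follow the sample titles. All 24 arrays were fitted in limma 3.58.1 (R 4.3.3) with a mean per group, an intensity trend and 16 residual degrees of freedom. P-values were adjusted over all genes by Benjamini-Hochberg, with calls at an adjusted p under 0.05. Errors of log2 changes are SE of the fit. The fit was tested on simulated data. With 3 arrays per group, the number of arrays limits the precision.

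Named genes were the 15 largest rises and 15 largest falls with a gene name and no overlap, all clock genes, up to 4 called members of each list (2 with the largest difference where none was called), 15 genes always, 5 by the interaction and 5 each nearest to Arntl and Dbp. Acacb, 1700048O20Rik, 4932431P20Rik and Adipoq stand outside this rule and were chosen after their values were seen. The members, lists and tests were chosen with earlier results of these data known. Alternatives covered filters, floor, pseudocount, scaling, probe set rule, variance model, arrays in the fit, thresholds, a replicate block and each array left out. Other oil groups as reference, 2 covariates and a fit without oil 28 h were chosen after the data were seen.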

Additional observations from a re-analysis of the deposited data

Results flagged for a closer look

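Aldh3a1 was the gene whose change from 4 h to 16 h differed between treatments by a test of the difference itself. Its log2 change with progesterone minus that in oil was -2.87 (limma interaction, adjusted p = 0.00394). In oil the change was -0.35 (adjusted p = 0.506) with overlapping arrays, and with progesterone it was -3.22 (adjusted p = 9.91e-07). All 6 oil arrays read this gene below their array medians, which ran from 62.8 to 69.5. The change in oil was therefore read at low intensity. The interaction also called 1 gene whichever of the 6 oil arrays was left out.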

How the results depend on the processing

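The number of genes called between oil 16 h and oil 4 h, 284, depended on the setting. It was 88 with no filter, 598 after quantile normalization, 450 after centring, 95 without the intensity trend, 3341 with array weights, 484 with the 12 oil arrays, 7 at an adjusted p under 0.01, 837 under 0.10 and 117 with a 1.5-fold change as well. Of references and covariates added later, oil 76 h gave 0, the mean of the other oil groups 123, the actin ratio 565 and the fit without oil 28 h 526. With single arrays left out it ran from 0 to 185. The 4 clock calls became 0 with no filter, 1 without trend, 10 with array weights, 2 in the fit of 6 arrays, 0 at an adjusted p under 0.01 and 8 under 0.10. They became 0 with either other reference, 2 with the actin ratio and 0 to 3 without single arrays. The interaction count of 1 became 2 with no filter, 3 after quantile normalization, 5 with a pseudocount, 5234 with array weights, 4 with 12 arrays and 4 at an adjusted p under 0.10. The 47 calls shared with progesterone became 11, 154, 93, 12, 1211 and 76 with no filter, quantile normalization, centring, no trend, array weights and 12 arrays. They became 112 with each probe set alone, 0 under 0.01, 161 under 0.10, 28 with the fold limit and 0 to 35 without single arrays. The causes were not tested.

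Replicate numbers did not pair the samples: deviations of same-numbered oil arrays correlated with r of -0.04, -0.01 and 0.04. With the replicate block 175 genes were called, 169 of them among the 284, with 7 clock calls and 31 shared with progesterone. Among named genes 1873 of the alternative values kept direction and side of the threshold, 471 lost a call, 76 gained one and 39, in 13 genes that were not called, changed sign or came to 0. The log2 differences that changed sign were -5e-04 for Lep and -0.0074 for Hoxb6 after quantile normalization. After centring they were -0.028 for Scd1, -0.065 for Lep, -0.0628 for Csn2 and -0.0087 for Hoxb6. Csn2 was -0.0343 with the pseudocount and 0 with the higher floor. Averaged probe sets gave 0.0796 for Nr1d2 and 0.0791 for Esr1. Array weights gave 0.0125 for Per1, 0.0826 for Pdk4, -0.0355 for Lep and -0.0905 for Csn2. Without single arrays the ranges were -0.308 to 0.0962 for Per1, -0.176 to 0.198 for Slc4a1, -0.359 to 0.026 for Mcpt4, -0.0021 to 0.0992 for Scd1, -0.189 to 0.0446 for Pdk4, -0.0396 to 0.435 for Angptl4, -0.0558 to 0.102 for Lep, -0.0325 to 0.282 for Fkbp5, -0.197 to 0.0918 for Pgr, -0.255 to 0.268 for Csn2 and -0.067 to 0.186 for Hoxb6. Beyond these, Per2 came to 0.17 with the actin ratio and Per1 to 0.06 with the muscle score as covariate. Low intensities, as for Npas2, 1700048O20Rik and, in oil, Aldh3a1, limit what the arrays can resolve.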
